A study of Apostichopus japonicus with 9 samples.

Results

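In the gut of the sea cucumber Apostichopus japonicus, 25 gene models had a mean level that stepped in one direction from dilute to control to concentrated sea water, 14 of them rising with salinity and 11 falling. They were picked from 12545 gene models that reached the abundance minimum, out of 27269 with any estimated count, so that the rising genes are 0.112% and the falling genes 0.0877% of those examined. A gene was taken when the 3 libraries of concentrated sea water lay all above, or all below, the 3 libraries of dilute sea water, and when the control mean lay between the other 2 means and more than 2.5-fold from each. Values are scaled counts, that is estimated counts divided by a size factor for the library, and 1 was added to each group mean before ratios were taken. A mean scaled count of at least 10 over the 9 libraries was required. The measured levels themselves chose these genes, so their order by salinity is a description and no test of it is given. "Rising" and "falling" name the 2 sets and do not say that a gene passed a test.

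Animals, whose age and strain the labels do not state, were kept at 15 °C before the experiment, with 20 in each group. SD20 animals were brought to diluted sea water (labelled salinity 20), SD30 animals stayed in control sea water (labelled 30), and SD40 animals were brought to concentrated sea water (labelled 40), in steps of 2.5 every 6 h. Each group has 3 poly(A) RNA libraries, each a pool of RNA from 3 animals, so the spread between libraries is a spread between pools, and 1 animal with a high level cannot be told apart from several with a moderate one. Nothing states whether pools of a group came from separate tanks, so a difference by salinity cannot be told apart from a difference between tanks. Libraries of a group may also not be independent, and their spread may be partly technical. Bulk intestine was sequenced, and more cells of a type cannot be told apart from more RNA per cell.

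Sea cucumbers are echinoderms, and echinoderms are largely osmoconformers: the salt content of the body fluid follows that of the surrounding water. Their cells keep their volume mainly by moving ions across the membrane and by taking up, making or releasing small organic osmolytes such as free amino acids. The gut wall is one of the surfaces that faces this change, since sea water is swallowed with sediment. The gene models carry AJAP identifiers that the files do not pair with names, and 0 of them match the RefSeq gene table of the species, so no role can be given to any of the 25 genes and the intestinal label could not be checked against marker genes.

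Libraries held 2834168 to 4060892 estimated counts. Size factors were 1.32 to 1.55 at SD20, 0.537, 0.566 and 1.15 at SD30, and 0.850 to 1.34 at SD40. The same count thus stands for a higher scaled level in SD30 replicates 1 and 2 than elsewhere. These libraries held 3373860 and 4060892 counts, so their low size factors did not go with low totals. They had reads for the fewest gene models, 17306 and 17954. Size factors therefore raise their values relative to scaling by library totals. The cause was not tested. Reads were found for 20851 to 22747 gene models in SD20, 17306 to 20233 at SD30 and 19105 to 22129 at SD40. SD40 replicate 1, with the 22129, lay within the SD20 range, and its long gene models were relatively abundant as in SD20 replicates 1 and 3 (Spearman's rho between length and departure from the gene's mean 0.217, against -0.188 and -0.144 at SD40 replicates 2 and 3, and 0.157, -0.00777 and 0.210 at SD20).

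Most genes that separated SD40 from SD20 did so by too little for a control level far from both. All 3 SD40 libraries lay above all 3 SD20 libraries for 873 genes (6.96% of those examined) and below them for 801 (6.39%). The control mean lay between the other means for 441 and 446 of these. Of the 873 and 801 genes, 76 and 47 had outer means far enough apart for a pair of 2.5-fold steps, and both steps exceeded 2.5-fold in 14 and 11. Over all 12545 genes, a gene that was higher in SD30 than in SD20 tended to be lower in SD40 than in SD30, as the plot of both steps shows, but the SD30 mean enters both axes with opposite sign, so this slope is not a result.

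**Figure D1:**
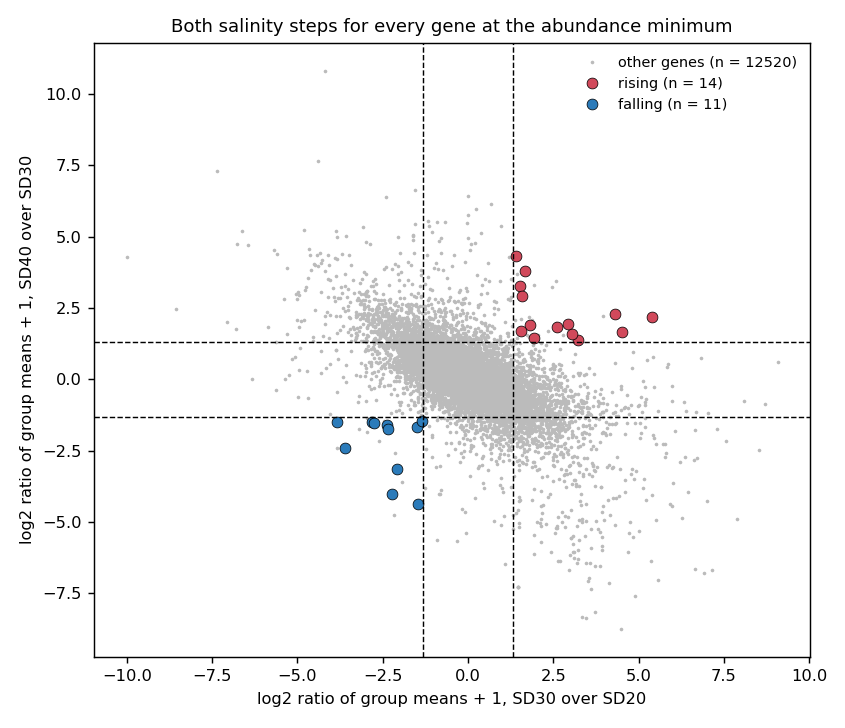
Each point is a gene model at the abundance minimum, with the log2 ratio of group means (+1) for SD30 over SD20 on the horizontal axis and for SD40 over SD30 on the vertical axis; dashed lines mark 2.5-fold. The 14 rising genes lie in the upper right corner and the 11 falling genes in the lower left corner, and grey points in those corners are genes whose SD20 and SD40 libraries overlapped.

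At the 2.5-fold limit the rising gene nearest inside was AJAP05895, with a smaller step of 2.57-fold from SD30 to SD40. The gene nearest outside was AJAP16998, at 2.46-fold from SD20 to SD30 and 3.68-fold from SD30 to SD40. Among falling genes AJAP16848 was nearest inside, with a ratio of 2.55 between SD20 and SD30, and AJAP30309 nearest outside, with 2.39. At the abundance minimum AJAP05895 had a mean of 10.5 scaled counts and AJAP16359, which met the other conditions, had 8.22. For falling genes the corresponding means were 12.8 in AJAP12234 and 6.62 in AJAP11418.

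Most rising genes had few reads in dilute sea water. Together the 14 genes took 0.00307% to 0.00737% of counts in the SD20 libraries, 0.0110% to 0.0197% at SD30 and 0.0432% to 0.196% at SD40. The median gene had a mean of 1.12 scaled counts in SD20, 11.2 at SD30 and 124 at SD40. In the authors' FPKM, which allow for gene length, mean levels ran from 0 to 34.1 at SD20, from 0.943 to 107 at SD30 and from 8.95 to 620.4 at SD40. Highest in SD40 by this measure was AJAP05123, and AJAP05895 was lowest.

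**Figure D2:**
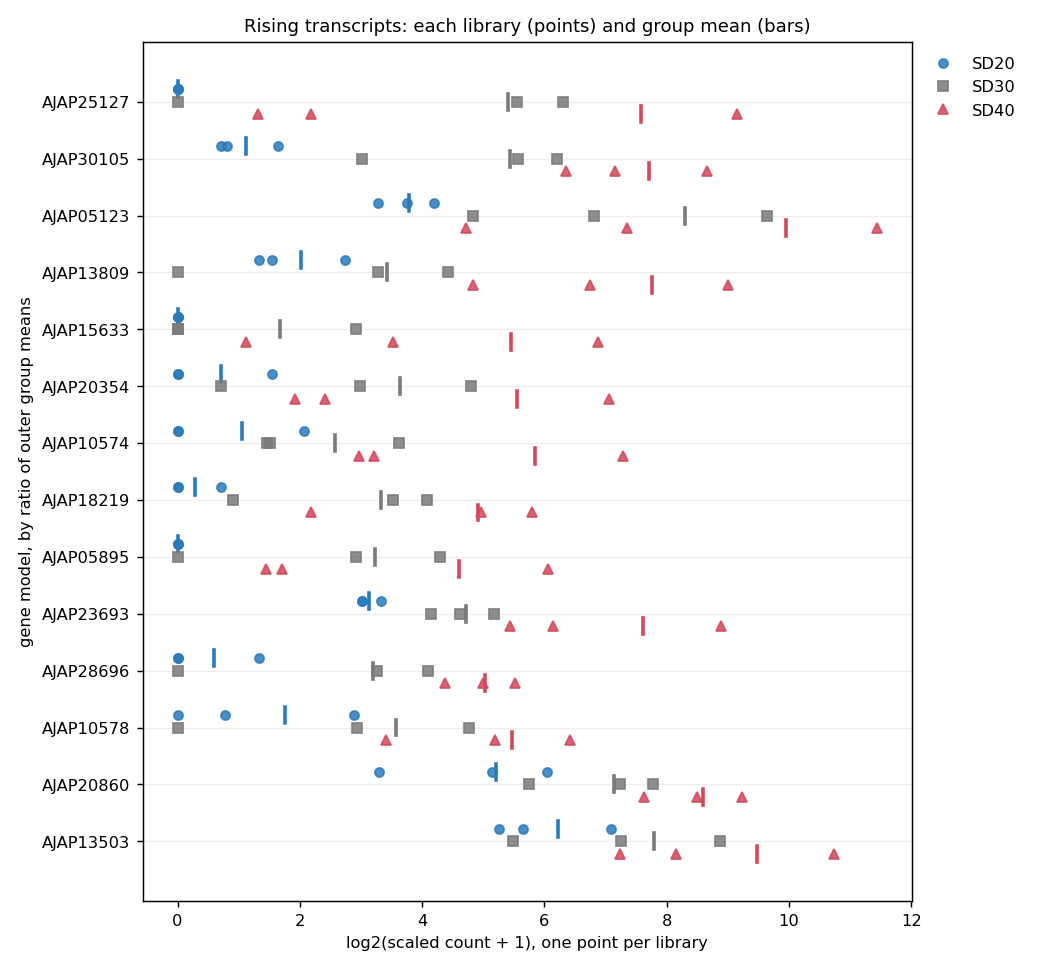
The horizontal axis is log2(scaled count + 1) of the 14 rising gene models (rows), with 1 point per library in the SD20, SD30 and SD40 groups and a short bar at each group mean; rows are ordered by the ratio of the SD40 to the SD20 mean. The SD40 points lie to the right of the SD20 points in every row, and the SD30 points lie wholly between them in AJAP30105 and AJAP23693 alone.

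AJAP30105, a gene model of 1539 bases, was 1 of 2 members with every library in order of salinity. Its scaled counts were 0.756, 2.13 and 0.644 at SD20, 46.6, 7.07 and 73.0 at SD30, and 141, 80.5 and 402 at SD40. No library overlapped another group. The deposited counts were whole numbers throughout, at 1, 3 and 1 at SD20, 25, 4 and 84 at SD30, and 190, 83 and 342 at SD40. Means were 1.18 ± 0.826, 42.2 ± 33.2 and 208 ± 171 scaled counts in SD20, SD30 and SD40 (SD, n = 3 each), and the SD40 mean was 177-fold the SD20 mean. The edgeR log2 fold change of SD40 over SD20 was 7.33 (SE 1.11).

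AJAP23693 was the only other member in full order. This short model of 402 bases had 9.07, 7.09 and 7.08 scaled counts in SD20, 16.8, 35.4 and 23.5 at SD30, and 70.0, 474 and 42.3 at SD40. Its SD20 libraries were tight, and its SD30 libraries were less so, with FPKM of 7.05, 13.1 and 21.3. SD40 replicate 2 alone carried 80.8% of the SD40 sum. The SD40 mean was 195 ± 242 and the SD20 mean 7.75 ± 1.15 (SD, n = 3 each), a 25.2-fold ratio, with an edgeR log2 fold change of 4.66 (SE 0.95). The full order of both genes held with TMM scaling and was lost with library totals and with FPKM. Under both, SD30 replicate 3 passed SD40 replicate 2 in AJAP30105, while SD30 replicate 1 came to lie below every SD20 library in AJAP23693. Without the fold limit, 10 genes in the rising direction (0.0797%) and 3 in the falling direction (0.0239%) had all 9 libraries in order.

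Transcripts with no read in any SD20 library formed the next set, AJAP05895, AJAP15633 and AJAP25127. A total of 3 counts over the group, the limit that a count of 0 allows, corresponds to 0.700 scaled counts on average in SD20. AJAP25127, of 1758 bases, had 78.3, 46.0 and 0 scaled counts in SD30 and 1.49, 567 and 3.53 at SD40. One SD40 library thus held 99.1% of the SD40 sum, and 2 SD30 libraries lay above the other 2 SD40 libraries. Its SD40 mean was at least 273-fold higher than in SD20, with SD20 set at that limit. AJAP05895, of 780 bases, had the same shape at a lower level, with 18.7, 6.52 and 0 scaled counts in SD30 and 2.26, 65.7 and 1.72 at SD40, at least 33.2-fold higher on average than in SD20. AJAP15633, of 351 bases, had 0, 6.58 (3.72 estimated counts) and 0 at SD30 and 10.6, 117 and 1.18 at SD40, at least 61.4-fold higher. These bounds cover counting error only, and in all 3 genes SD40 replicate 2 supplied over 90% of the SD40 sum (90.9% to 99.1%).

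The 3 most abundant rising genes had reads in every library. AJAP05123, of 495 bases, had 8.75, 17.3 and 12.4 scaled counts in SD20, 799.5, 111 and 27.5 at SD30, and 162, 2783 and 25.4 at SD40. Both SD30 and SD40 spanned more than an order of magnitude, and each SD30 library exceeded the lowest SD40 library. AJAP13503, of 858 bases, had 136, 37.3 and 49.0 at SD20, 44.1, 468 and 151 at SD30, and 150.3, 1712 and 285 at SD40. Here the outer groups were barely apart, since SD40 replicate 1 stood at 150.3 and SD20 replicate 1 at 136. AJAP20860, of 1122 bases, was the most even of the 3, with 34.2, 8.83 and 64.8 at SD20, 151, 53.0 and 217 at SD30, and 362, 602 and 197 at SD40. Its means of 35.9 ± 28.0, 140.3 ± 82.6 and 387 ± 204 (SD, n = 3 each, SD20, SD30 and SD40) gave a 10.8-fold ratio of SD40 to SD20, with 1 SD30 library in the SD20 range and 1 in the SD40 range.

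The remaining 6 rising genes had low SD20 levels. They and AJAP15633 are described to complete the list, having been added after their values were seen. AJAP28696 was the most even, with 1.51, 0 and 0 scaled counts in SD20, 16.1, 8.61 and 0 at SD30, and 19.6, 30.8 and 45.0 at SD40. AJAP18219 had a single read in SD20, 10.5, 15.9 and 0.869 scaled counts in SD30, and 54.3, 30.1 and 3.53 at SD40. AJAP10578 had 0, 0.709 and 6.41 at SD20, 26.1, 0 and 6.61 at SD30, and 9.67, 35.5 and 84.4 at SD40. In each of these 3 genes at least 1 SD30 library fell to the SD20 range or was below 1 scaled count. AJAP13809 had 1.51, 5.67 and 1.93 at SD20, 20.5, 0 and 8.69 at SD30, and 27.5, 107 and 513 at SD40, so that its SD30 libraries all stayed below SD40. SD40 replicate 1 led in AJAP10574 (0, 0 and 3.22 at SD20, 1.86, 1.77 and 11.3 at SD30, 156, 6.79 and 8.23 at SD40). It also led in AJAP20354 (0, 0 and 1.93 at SD20, 6.95, 26.7 and 0.643 at SD30, 131, 2.79 and 4.32 at SD40). In both, the other 2 SD40 libraries lay within the SD30 range. Where SD20 held 1 to 3 counts, the pooled SD40 to SD20 ratio had a wide exact 95% counting interval, at 142 (25.0 to 5670) in AJAP18219, 81.1 (27.3 to 397) in AJAP20354 and 63.8 (17.2 to 534) in AJAP28696.

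The falling genes mirrored this, with their reads mainly in dilute sea water. Together the 11 took 0.0255% to 0.0492% of counts in SD20, 0.00212% to 0.00612% at SD30 and 0.000734% to 0.00168% at SD40. The median gene had a mean of 72.1 scaled counts in SD20, 8.97 at SD30 and 1.29 at SD40. In FPKM their means ran from 10.5 to 77.3 at SD20, from 0.273 to 14.1 at SD30 and from 0 to 4.14 at SD40. None of the 11 had all 9 libraries in order (0 genes).

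**Figure D3:**
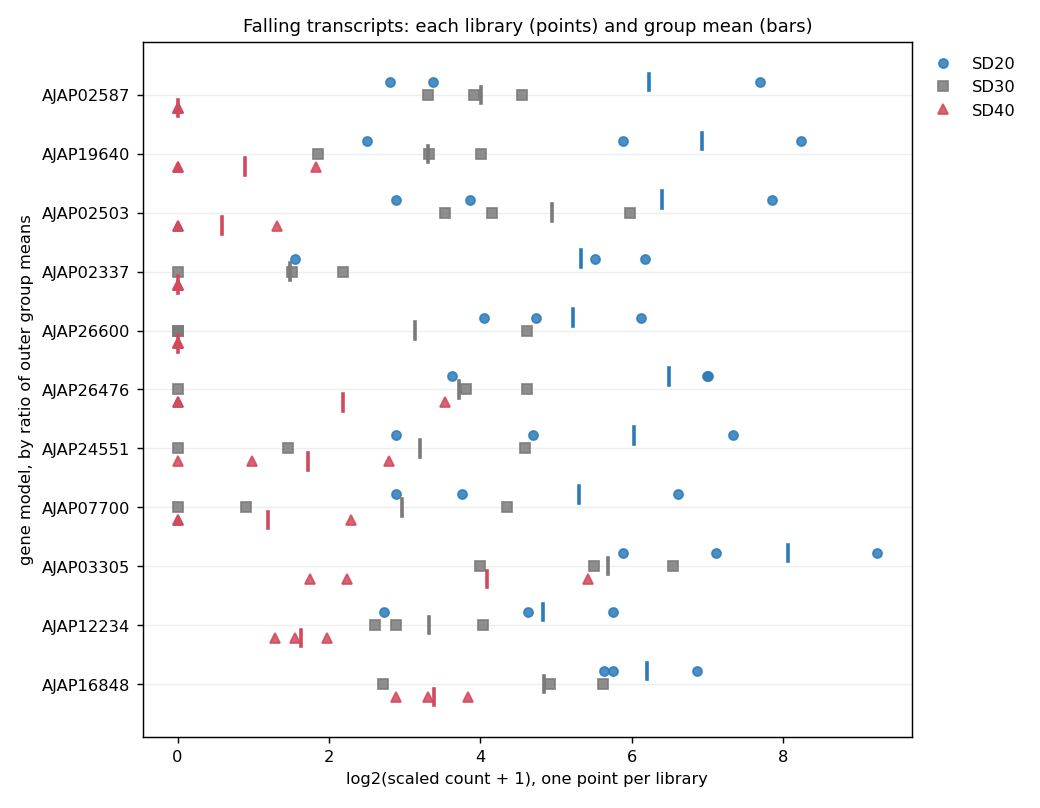
The horizontal axis is log2(scaled count + 1) of the 11 falling gene models (rows), with 1 point per library in the SD20, SD30 and SD40 groups and a short bar at each group mean; rows are ordered by the ratio of the SD20 to the SD40 mean. The SD20 points lie to the right of the SD40 points in every row, while in no row do all SD30 points lie between the 2 sets.

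AJAP02337, AJAP02587 and AJAP26600 had no read in any SD40 library, which allows up to 0.930 scaled counts on average over that group. AJAP02587, of 573 bases, had 207, 6.01 and 9.33 scaled counts in SD20 and 14.0, 22.4 and 8.92 at SD30. Its SD30 libraries were as high as the lower 2 SD20 libraries, so SD20 replicate 1 alone placed the SD20 mean above SD30. The SD20 mean was at least 79.5-fold higher than in SD40, with SD40 set at that limit. AJAP26600, of 699 bases, had 15.5, 25.5 and 68.4 at SD20 and 0, 0 and 23.4 at SD30, and its SD20 mean was at least 39.2-fold higher than in SD40. AJAP02337, of 966 bases, had 71.1, 44.7 and 1.93 at SD20 and 1.86, 3.54 and 0 at SD30 (3 counts in all). Its SD20 mean was at least 42.2-fold higher than in SD40. In this last gene the third SD20 library was within the SD30 range.

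AJAP19640 and AJAP02503 had only 3 and 2 rounded counts in SD40. AJAP19640, the longest member at 2637 bases, had 4.66, 299.5 and 58.0 scaled counts in SD20, 9.02, 15.1 and 2.61 at SD30, and 2.56, 0 and 0 at SD40. Its pooled SD20 level was 130.1 times that of SD40 (exact 95% counting interval 44.3 to 633). AJAP02503, of 618 bases, had 231, 6.38 and 13.5 at SD20, 16.8, 10.6 and 61.7 at SD30, and 1.49, 0 and 0 at SD40, a pooled ratio of 126 (34.6 to 1045). All 3 SD30 libraries of AJAP02503 exceeded the lowest SD20 library.

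AJAP16848, of 711 bases, had the smallest ratio between the outer groups and comparatively even libraries. Its scaled counts were 48.6, 53.0 and 115 at SD20, 48.2, 29.2 and 5.58 at SD30, and 6.36, 8.86 and 13.3 at SD40. The highest SD30 library stood just under the lowest SD20 library, and the lowest SD30 library lay below all SD40 libraries. Means were 72.1 ± 37.1, 27.7 ± 21.4 and 9.49 ± 3.49 at SD20, SD30 and SD40 (SD, n = 3 each), and the edgeR log2 fold change of SD40 over SD20 was -2.93 (SE 0.77). AJAP12234, of 846 bases, varied somewhat more, with 52.8, 23.7 and 5.61 at SD20, 15.4, 6.38 and 5.11 at SD30, and 1.94, 1.44 and 2.93 at SD40. Its SD30 libraries all lay above SD40, and 2 of them lay within the SD20 range.

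AJAP03305, of 1728 bases, was the most abundant falling gene by scaled counts, at 603, 58.1 and 138 at SD20, 14.9, 91.9 and 44.3 at SD30, and 3.72, 41.7 and 2.35 at SD40. SD20 replicate 1 held 75.5% of its SD20 sum. AJAP26476, of 480 bases, had 11.3, 128 and 127 at SD20, 13.0, 0 and 23.5 at SD30, and 0, 0 and 10.6 at SD40, with 2 SD20 libraries far above the rest. SD20 replicate 3 led in AJAP24551 (24.9, 6.38 and 161 at SD20, 0, 23.0 and 1.74 at SD30, 5.96, 0.970 and 0 at SD40), of 2466 bases. It led in AJAP07700 as well (12.6, 6.40 and 96.4 at SD20, 0, 19.4 and 0.869 at SD30, 0, 3.88 and 0 at SD40), of 1002 bases. Both genes had an SD30 library with no read and another above the lowest SD20 library.

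The grading was in group means far more than in single libraries. In 10 of the 14 rising genes at least 1 SD30 library was at or below the highest SD20 library, and in 10 at least 1 was at or above the lowest SD40 library. Both held for 8 genes. Among the 11 falling genes, 10 had an SD30 library at or above the lowest SD20 library, 7 had one at or below the highest SD40 library, and 6 had both. An SD30 library without a read occurred in 6 rising and 5 falling genes. These counts were not taken over all genes. They describe the members alone and cannot show whether other genes overlap more or less. On the log scale the SD30 mean stood at a median of 0.580 of the way from the SD20 to the SD40 mean in rising genes (0.245 to 0.731), and at 0.429 of the way from SD40 to SD20 in falling genes (0.279 to 0.749).

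One library carried most of the high group in many members. The highest SD40 library held a median of 80.3% of the SD40 sum in rising genes (47.2% to 99.1%), against 49.9% over all genes at the abundance minimum. For falling genes the highest SD20 library held a median of 75.5% (48.0% to 93.1%), against 45.5% over all genes. More than 75% of the sum lay in 1 library for 9 rising and 6 falling genes. SD40 replicate 2 was the highest SD40 library in 7 rising genes, replicate 3 in 4 and replicate 1 in 3. SD20 replicate 1 was the highest SD20 library in 5 falling genes, replicate 3 in 4 and replicate 2 in 2. The coefficient of variation within SD40 had a median of 122% in rising genes and 50.3% over all genes. Within SD20 it was 110% in falling genes and 38.4% over all genes. A rule on group means favours genes with 1 very high library, so these values describe the members and are not a separate result.

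Leaving out a library showed which members rested on it. AJAP30105 among rising genes and AJAP19640 among falling genes met the rule in all 9 sets of 8 libraries, and each other member was lost in at least 1. Between 7 and 13 of the 14 rising genes were kept, with the 7 found without SD40 replicate 2. Lost there were AJAP05123, AJAP05895, AJAP13503, AJAP15633, AJAP20860, AJAP23693 and AJAP25127. Of the 11 falling genes 5 to 10 were kept, the 5 without SD30 replicate 2. Other genes entered in every case. Without SD40 replicate 1 the falling direction held 78 genes, 8 of them original members and 70 others. These 78 had a median length of 1397 bases, against 1071 over all genes. When an SD20 or SD40 library is left out, the condition that these groups do not overlap is easier to meet by construction. SD40 replicate 1 was the SD40 library nearest to SD20 in genes detected and in the trend with length, and the part of this in the result was not tested.

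**Figure D4:**
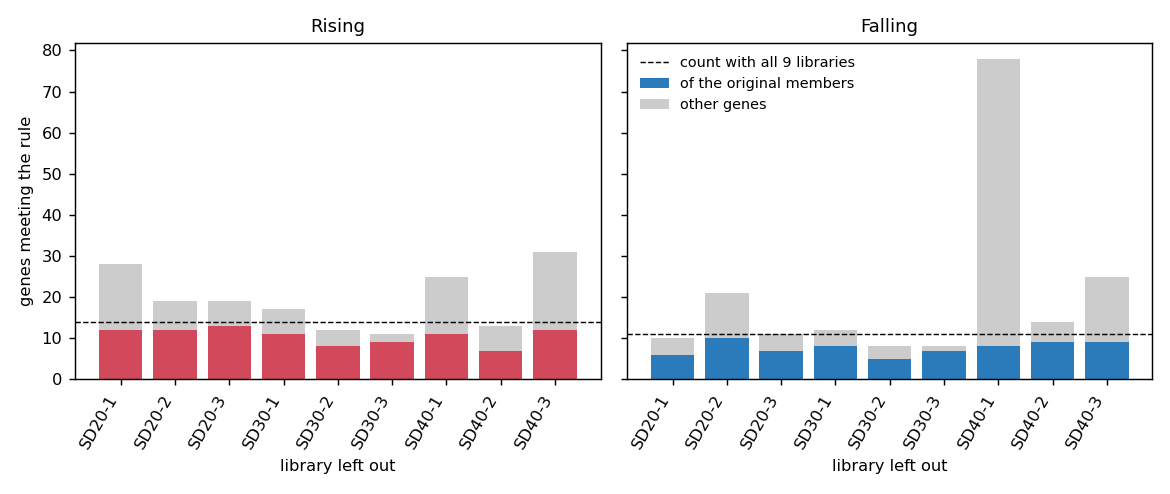
Bars give the number of genes that met the rule when the library named on the horizontal axis was left out, for rising genes (left panel) and falling genes (right panel); the coloured part counts original members, the grey part other genes, and the dashed line the 14 or 11 genes found with all 9 libraries. The coloured part is lowest without SD40-2 for rising genes, at 7, and the tallest bar is the 78 falling genes without SD40-1.

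Members did not share a single pattern of variation within groups. Each library's log2(scaled count + 1) was taken relative to its group mean. These departures were correlated between members over 9 libraries, which share depth and scaling. AJAP05895, AJAP15633 and AJAP25127 had no read in SD20, so their departures there were 0 and r between them rests on SD30 and SD40 libraries. The median Pearson's r was 0.0543 over the 91 pairs of rising genes and -0.0226 over the 55 pairs of falling genes. Above 0.9 were 3 rising pairs, 0 falling pairs and 1 of 154 mixed pairs. The share over pairs of all genes was not computed, so the pairs named below are only the extremes of a list. The rule favours genes with 1 very high library, and SD40 replicate 2 was that library in 7 rising genes. Shared departures in SD40 replicate 2 are thus partly built in. AJAP05895 and AJAP25127 were closest, with r = 0.984, and AJAP05123 was near both (0.937 and 0.868). All 3 were highest in SD40 replicate 2, next highest among SD30 and SD40 at SD30 replicate 1, and low in SD40 replicate 3. AJAP15633 and AJAP23693 formed another pair (r = 0.927), highest in SD40 replicate 2 and, among controls, in SD30 replicate 2. The mixed pair joined the rising AJAP13503 with the falling AJAP03305 (r = 0.920), both high within their groups in SD20 replicate 1, SD30 replicate 2 and SD40 replicate 2. AJAP30105 went against AJAP15633 (r = -0.855), being lowest in SD30 replicate 2 and SD40 replicate 2.

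**Figure D5:**
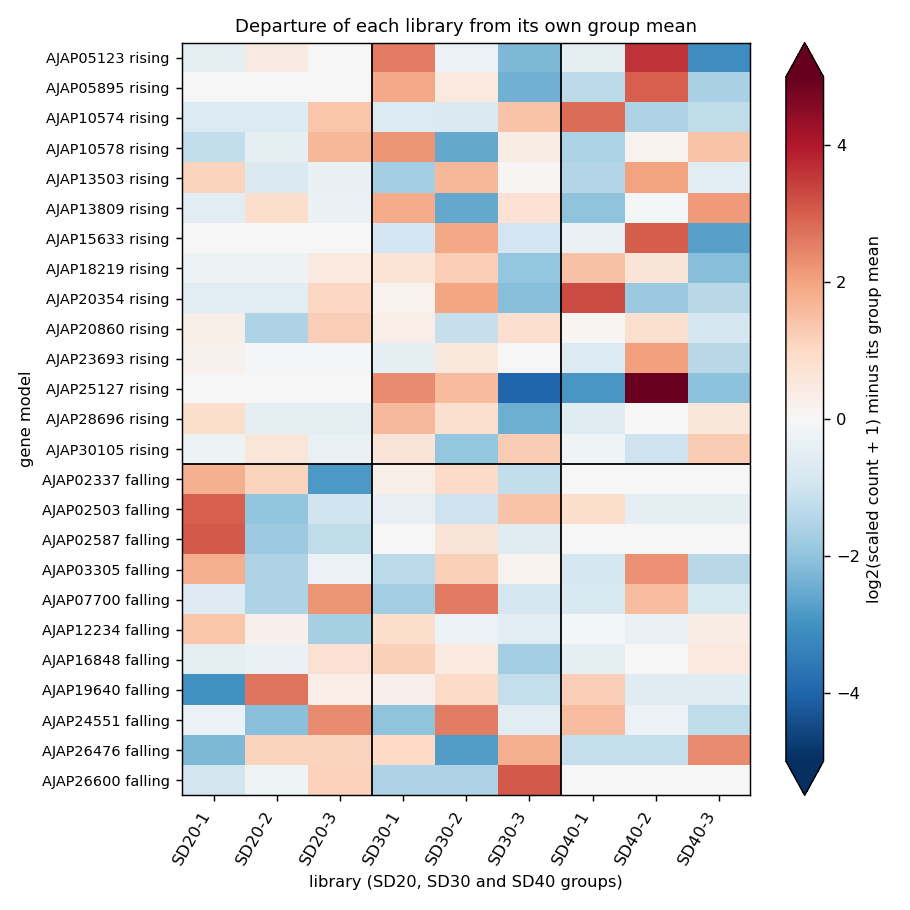
Colour gives log2(scaled count + 1) of each gene model (rows) in each library (columns) minus the mean of that library's group, red above and blue below, with vertical lines between SD20, SD30 and SD40 and a horizontal line between rising and falling genes. AJAP05123, AJAP05895 and AJAP25127 share red cells in SD30-1 and SD40-2, whereas AJAP10574 and AJAP20354 are red in SD40-1.

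The scaling of libraries moved the control level relative to both outer groups. All 14 rising and all 11 falling genes met the rule with TMM scaling, but 6 and 5 did with library totals and 5 and 4 with FPKM. The control mean stayed between the other means for all 25 genes under each of these 3 scalings, and the outer groups stayed apart for all but AJAP13503, which overlapped with library totals and with FPKM. Met under all 3 were 4 rising genes (AJAP05123, AJAP18219, AJAP25127 and AJAP30105) and 4 falling genes (AJAP02503, AJAP02587, AJAP26476 and AJAP26600). With library totals, 7 of the 8 rising genes lost had an SD30 mean within 2.5-fold of SD20, and AJAP05895 fell below the abundance minimum. All 6 falling genes lost had an SD30 mean within 2.5-fold of SD40. With FPKM, where 1 was also added to group means, the same held for all 9 rising and all 7 falling genes lost. Where mean FPKM is near or below 1, the added 1 itself narrows this step. AJAP28696 had mean FPKM of 0.287 at SD20 and 1.85 at SD30, and a ratio of 2.22 with 1 added. AJAP19640 had 0.107 at SD40 and 0.547 at SD30, and a ratio of 1.40 with 1 added. The parts of the scaling and of the added 1 in these losses were not tested. For AJAP23693 the ratio of SD30 to SD20 was 3.00 with size factors and 1.65 with library totals, while the ratio of SD40 to SD30 was 7.50 and 10.7. For the falling AJAP16848 the ratio of SD20 to SD30 was 2.55 with size factors and 6.06 with library totals, while the ratio of SD30 to SD40 was 2.73 and 1.52.

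In the fit across all genes, 9 rising and 7 falling genes passed the filter on low counts. None of these 16 was called in SD40 against SD20 (0 genes, edgeR quasi-likelihood test with Benjamini-Hochberg adjustment over 14191 genes, of which 0.00705% were called higher and 0% lower). The lowest adjusted p was 0.365 in AJAP30105 among rising genes and 0.740 among falling genes. All 16 had an unadjusted p under 0.05 in edgeR, as did 6.44% of all genes tested (4.03% higher and 2.41% lower in SD40). DESeq2 called 6 rising and 1 falling of the 16, and 8 and 3 of all members, beside 0.487% of the 13153 genes it tested (0.342% higher and 0.144% lower in SD40). It gave no adjusted p for 1 rising member (AJAP10574) and 2 falling members (AJAP02503 and AJAP02587). The rule used the same contrast, and nothing is read from these counts.

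Gene models of both sets were somewhat short, and their means over all 9 libraries were of ordinary size. Median lengths were 819 bases in rising genes (351 to 1758) and 846 bases in falling genes (480 to 2637), against 1071 over all genes at the minimum. Mean scaled counts over the 9 libraries had medians of 48.6 and 29.7, against 37.2. The high group carried these means. Median group means were 1.12 at SD20 and 11.2 at SD30 in rising genes. In falling genes they were 8.97 at SD30 and 1.29 at SD40. Members such as AJAP05895 (means of 0 at SD20, 8.41 at SD30 and 23.2 at SD40) reached the minimum of 10 only through that group. Estimated counts were whole numbers in every library for 4 of 14 rising genes (AJAP10574, AJAP13809, AJAP23693 and AJAP30105) and 5 of 11 falling genes (AJAP02337, AJAP02503, AJAP03305, AJAP24551 and AJAP26476), against 43.8% of all genes. The other members had fractional counts. Such counts can come from reads shared out among like sequences, so the levels of these members are uncertain if the genome holds near-identical copies.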

How the data were processed

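Poly(A) RNA of intestine was sequenced in 9 libraries. The files hold estimated counts per gene model, deposited by the authors without normalization, and FPKM, which the authors scaled for length and depth per the file headers. The submitters' processing notes name CASAVA 1.5. Aligner, counter, genome build and annotation: not given in the sources used here. Any gene without a line in a file was set to 0. Size factors were medians of ratios over the 12361 genes above 0 in all libraries (Python 3.11.15, pandas 2.3.3). Counts rounded to whole numbers were fitted with edgeR 4.0.16 in R 4.3.3 (filterByExpr, TMM, robust quasi-likelihood, all 9 libraries, group as the only term, threshold 0.05), with DESeq2 1.42.0 as an alternative. The fit was tested on counts simulated with a shift common to all libraries of a group. That test does not cover members with a single very high library. An SE is the size of the log2 fold change over the square root of its F. Where a group had 0 reads, a floor of 3 counts over the group was used. Exact 95% intervals and floors cover counting error only. Genes were named by rule: every member of a set of 12 or fewer, and in a larger set the most abundant, the largest ratios, those in full order and those at the fold limit. The members, lists and alternatives were chosen with earlier results of these data known. No sequence could be matched to the identifiers.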

Additional observations from a re-analysis of the deposited data

Results flagged for a closer look

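AJAP30105 and AJAP23693 stood out because all their SD40 libraries lay above, and all their SD20 libraries below, every SD30 library, so that the departures from control at high and at low salinity had opposite signs in every library. Their mean scaled counts were 1.18 and 7.75 at SD20, 42.2 and 25.2 at SD30, and 208 and 195 at SD40 (n = 3 libraries each). The difference between the 2 departures was not tested apart from the direct edgeR comparison of SD40 with SD20, which the rule had used (adjusted p = 0.365 and 0.740). For AJAP30105 the log2 fold change lay between 6.47 and 8.00 when each library was left out, and for AJAP23693 between 2.82 and 5.16. Neither gene kept its full order with library totals or FPKM. The rule itself required the SD40 and SD20 libraries to lie apart, so that part was fixed in advance. Without the fold limit, 10 of 12545 genes were in full order in the rising direction (0.0797%) and 3 in the falling direction (0.0239%).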

How the results depend on the processing

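The number of rising and falling genes stayed within 1.5 times 14 and 11 with TMM scaling, a pseudocount of 0.1, an abundance minimum of 5, the SD30 median and geometric group means, though the genes were partly different: with geometric means 7 and 4 of the members were kept. The rising and falling counts were 8 and 17 with library totals, of which 6 and 5 were members, and 5 rising with FPKM. They were 17 falling at a 2-fold limit, 8 and 5 at 3-fold, 8 and 7 at a minimum of 20 scaled counts, 19 falling with no minimum, 2 and 0 when all 9 libraries had to be in order, and 4 and 5 with whole counts only. Under another order of groups they were 21 falling with SD20 in the middle place, and 46 and 35 with SD40 there. Leaving out each library gave 11 to 31 rising and 8 to 78 falling genes. The cause of these shifts was not tested, apart from limits that by construction admit more or fewer genes. Leaving out an SD20 or SD40 library likewise loosens the condition that these groups do not overlap. The whole-count, geometric-mean and middle-place settings were chosen after seeing the data.

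In edgeR 1 gene was called in SD40 against SD20 and 0 when any library was left out, and no member was called under any edgeR setting. DESeq2 called 64 genes in SD40 against SD20, 46 in SD40 against SD30 and 310 in SD20 against SD30. Without the filter on low counts edgeR called 1 in SD40 against SD30. With the replicate number as a block it called 0 in SD40 against SD20. Departures from the group mean in same-numbered libraries had r across genes from -0.103 to 0.200. Differently numbered libraries were not compared, so these values cannot settle whether the numbers pair the libraries. Log2 fold changes of SD40 over SD20, whose sign the choice of members fixes, were refitted for the 10 members named by rule that edgeR tested and that had reads in both outer groups. With DESeq2, 4 of these 10 passed the threshold: AJAP05123, AJAP20860, AJAP23693 and AJAP30105. It gave no adjusted p for AJAP02503, and it called 0.487% of the 13153 genes it tested. The rest of the 130 refitted values came from edgeR settings or did not pass, so 4 of 130 is not a rate of calls. The rule used this contrast, and nothing is read from these calls. With 2834168 to 4060892 counts per library, levels under about 1 scaled count rest on single reads. In SD30 replicates 1 and 2 a single read is 1.86 and 1.77 scaled counts, so levels up to these values rest on single reads there.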

Other observations

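The rule was also counted with each of the other groups in the middle place, a count added after the values were seen and given without a test. With SD20 in the middle place, 17 genes were highest in SD40 and lowest in SD30, and 21 the reverse. With SD40 in the middle place, 46 were highest in SD30 and lowest in SD20, and 35 the reverse. With SD30 in the middle place there were 14 and 11. The order of these counts changed when single libraries were left out. Part of this is built in. Leaving out a library of an outer group loosens the condition that the outer groups do not overlap, and leaving out one of the middle group does not. With SD20, SD30 and SD40 in the middle place the totals were 38, 25 and 81 with all libraries and 64, 103 and 60 without SD40 replicate 1. The SD30 total was also above the SD20 total without SD20 replicate 1 (38 against 29), SD20 replicate 2 (40 against 25) and SD40 replicate 3 (56 against 44), and it was the lowest of the 3 in the other 5 sets of 8 libraries.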
